A study of Mus musculus with 3 samples.

Results

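The genes described here are 39 genes of DNA replication and S phase, chosen by name: every row of the deposited table whose gene symbol is on a list of replication licensing, fork, nucleotide supply and S phase genes. All 39 were found among the 19381 genes of the table. They were measured by bulk RNA sequencing in 3 libraries, numbered 1 to 3, of mesenchyme from the proximal end of the mouse incisor. The mice had the genotype Gli1-CreER;Arid1a fl/fl;Arid1b fl/fl, called DKO, received tamoxifen by intraperitoneal injection at 1.5 mg per 10 g of body weight, were 1 month old, and gave tissue 4 days after induction. All 3 libraries belong to this group, a control group was not analysed here, and so no value below shows an effect of the deletion. Gli1-CreER is a tamoxifen-activated recombinase made in cells that express Gli1, so the floxed alleles are deleted only where it was active, and the sampled tissue also holds cells of other kinds. The labels do not say whether the libraries came from separate animals, and the spread between them may be technical.

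The mouse incisor grows throughout life, and stem cells and their fast-dividing progeny lie at its proximal end. Before S phase, the origin recognition complex, Cdc6 and Cdt1 load the MCM2-7 helicase onto DNA, a step called licensing. In S phase, kinases, Cdc45 and the GINS complex turn the loaded helicase on, polymerases copy the strands with the sliding clamp PCNA, and ribonucleotide reductase and thymidylate enzymes supply the nucleotides. E2F transcription factors bind the promoters of many of these genes and raise their transcription as cells pass from G1 into S phase.

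All values are the deposited normalized counts, which share a 75th percentile of 44.7 in each library and are not divided by gene length. The column totals were 986401, 958773 and 966163. Markers of mesenchyme were present, with 10 of 10 genes on that list at a mean of at least 10, as were 10388 of all 19381 genes. The same mean was reached by 8 of 8 endothelial, 9 of 10 dental epithelium, 7 of 8 macrophage and 7 of 8 odontoblast genes. It was reached by 1 of 7 lymphocyte and 2 of 6 erythroid genes. The count for mesenchyme thus does not set it apart from several other cell types. Arid1a was at 136, 130 and 133 and Arid1b at 50.5, 50.7 and 50.8 in libraries 1, 2 and 3, values over the whole gene that do not show whether a floxed exon was lost. Library 1 stood apart from the others in interferon response genes and ribosomal RNA. Of the interferon genes with a mean of at least 10, 10 of 10 were highest in it, against 31.2% of all such genes. Isg15 and Rsad2 reached that mean only through library 1, with values below 10 in libraries 2 and 3. The interferon list summed to 1561 against 341 and 348. The ribosomal RNA gene with the highest value was at 71670 against 47726 and 45066.

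Sequences are shown first for the licensing genes, because 7 of the 9 licensing genes with a promoter window in the RefSeq table held an E2F type match. That was the highest count of any functional group, but licensing is also the largest group, with 11 members. Windows ran from 250 bases before to 50 bases after each start site (RefSeq, build GRCm38.p6), and 32 of 39 members had one. The motifs searched on both strands were TTTGGCGC, TTTCCCGC, TTTGGCGG and TTTCGCGC. Excerpts below read 5′ to 3′ on the strand of the gene, with matches in capitals. A match to a motif of the opposite strand appears as its reverse complement, and Mcm5 and Mcm6 each carried overlapping matches of 2 motifs that form a run of 12 capitals.
Mcm5 (chr8:75109332-75109391, plus strand): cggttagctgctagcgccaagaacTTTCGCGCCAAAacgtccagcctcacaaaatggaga
Mcm6 (chr1:128359780-128359839, minus strand): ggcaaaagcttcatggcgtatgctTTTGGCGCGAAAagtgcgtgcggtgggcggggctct
Mcm7 (chr5:138172015-138172074, minus strand): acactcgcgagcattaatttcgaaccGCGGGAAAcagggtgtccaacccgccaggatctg
Mcm3 (chr1:20820266-20820295, minus strand): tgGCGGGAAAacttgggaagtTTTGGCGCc
Cdc6 (chr11:98907987-98908046, plus strand): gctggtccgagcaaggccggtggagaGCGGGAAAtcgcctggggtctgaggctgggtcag
Cdt1 (chr8:122568035-122568064, plus strand): gggaactaccttTTTGGCGCcatggcgcaa
Orc1 (chr4:108579394-108579453, plus strand): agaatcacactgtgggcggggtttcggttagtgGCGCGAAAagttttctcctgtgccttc
The excerpts of Mcm5, Mcm6, Mcm7, Cdc6 and Orc1 end before the RefSeq start site, with the match beginning 153, 110, 165, 138 and 27 bases before it. Those of Mcm3 and Cdt1 lie just after the start site. RefSeq start sites can differ from the deposited gene starts. By the deposited coordinates, the excerpts of Mcm7 and Cdc6 lie inside the gene, and that of Orc1 spans the gene start. Outside licensing, 3 of 4 polymerase genes with a window held a match, among them Pola1, the catalytic subunit of the polymerase that begins each DNA strand.
Pola1 (chrX:93632260-93632319, minus strand): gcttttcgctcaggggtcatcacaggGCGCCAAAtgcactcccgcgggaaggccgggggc

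In all, 14 of 32 members with a window held at least 1 of the 4 motifs, or 43.8%. The same search found a match in 2.70% of the 27025 genes in the promoter table and in 5.18% of the 8186 of these with a mean of at least 10 in the incisor libraries. Read on the strand of the gene alone, 7 members (21.9%) held a match, against 1.41% of all genes and 2.91% of those with a mean of at least 10. TTTCCCGC and TTTCGCGC were each found in 6 members, TTTGGCGC in 5 and TTTGGCGG in 3. Of 21 matches, 14 lay within 100 bases before to 50 bases after the start site, 6 members had at least 2 matches, and Mcm6 had 3. The other members with a match were Gins3, Pola2, Pold1, Lig1, Rfc3 and Chaf1a. None of the 4 nucleotide supply genes and none of the 3 G1/S genes with a window held one, which says only that these letters are not in these windows. A match is a description of sequence, and binding by a factor was not measured.

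**Figure D1:**
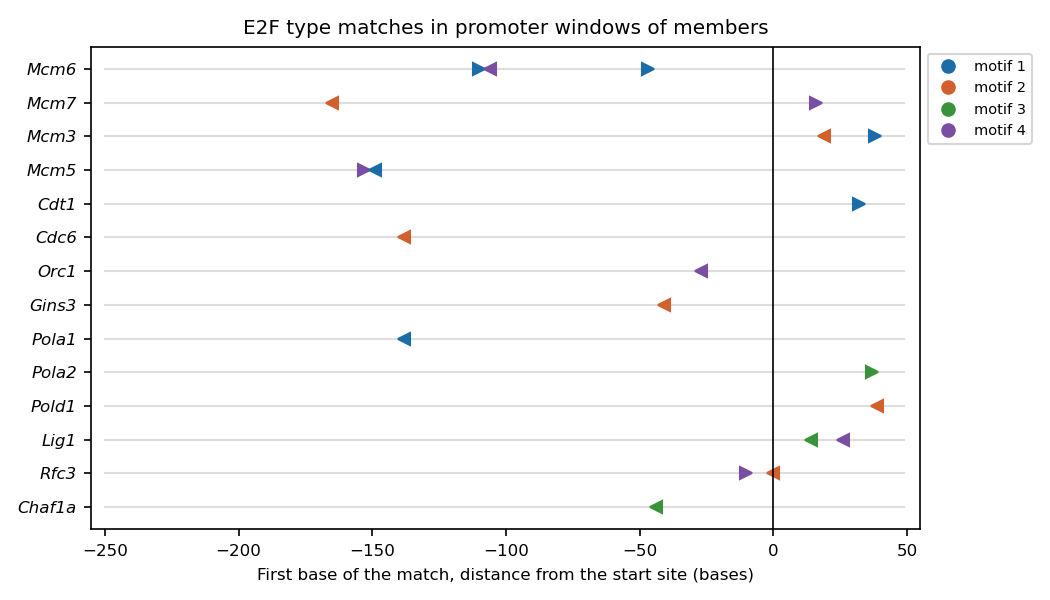
Positions of the 4 motifs in the promoter windows of the 14 members that hold a match. The x axis is the distance of the first base of the match from the start site in bases, arrows point right for the strand of the gene and left for the other strand, and motifs 1 to 4 are TTTGGCGC, TTTCCCGC, TTTGGCGG and TTTCGCGC; 14 of the 21 matches lie within 100 bases before to 50 bases after the start site.

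Every member was measured above a mean of 1, and 33 of 39 had a mean of at least 10. Of the 19381 genes in the table, 10388 had a mean of at least 10. The median mean of the 39 members was 20.2, against 12.5 over all genes, and their means lay between percentiles 36.6 and 93.0 of all genes. Only Rrm1 and Pcna had a mean of at least 100. The 6 members with means below 10 were Gins3, Chaf1b, Cdc6, Gins2, Gins1 and Orc1. Together the 39 genes held 0.122%, 0.142% and 0.135% of the total signal in libraries 1, 2 and 3, lowest in library 1 and highest in library 2. In tissue RNA of this kind, fewer cycling cells and less replication mRNA per cell cannot be told apart.

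**Figure D2:**
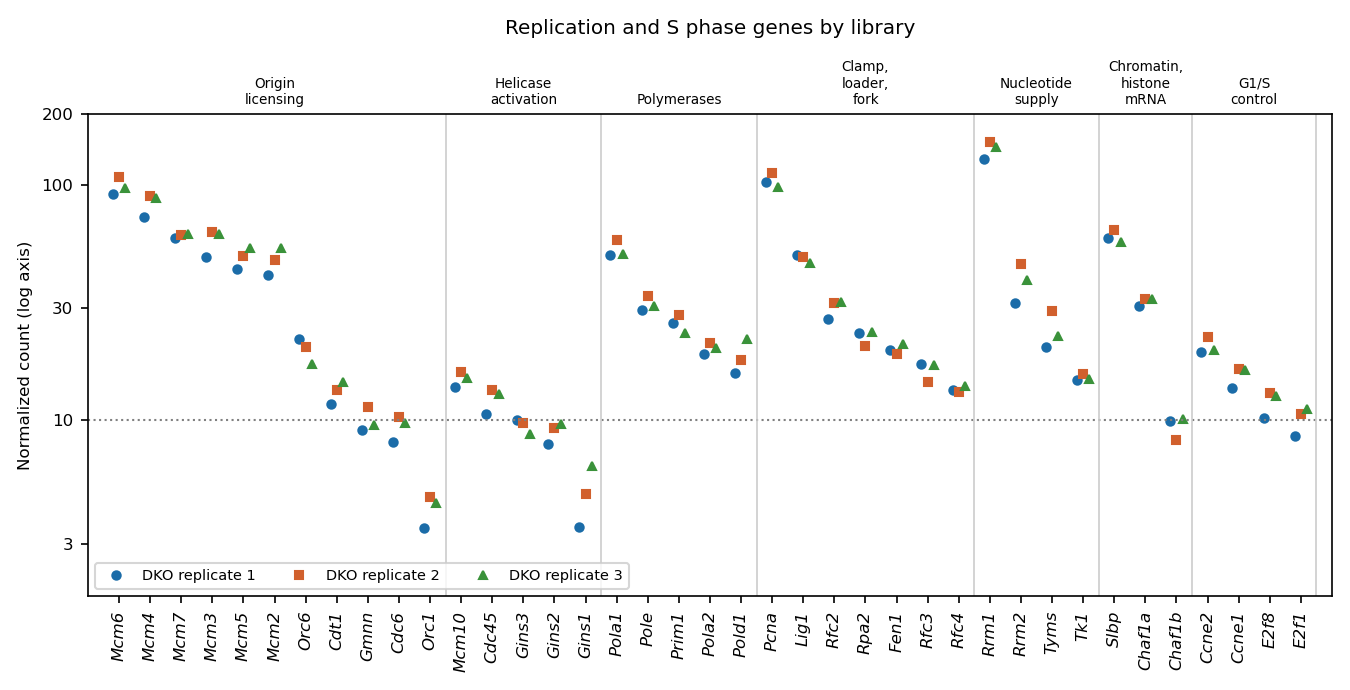
Normalized count of each of the 39 members in DKO libraries 1, 2 and 3, on a log axis, grouped by role and ordered by mean within a role; the dotted line marks a value of 10. Most groups have the library 1 point at the bottom, while the clamp, loader and fork genes do not.

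The subunits of the licensing helicase were among the higher members, and all 6 were lowest in library 1. Mcm6, a helicase subunit (chr1:128331590-128359664, minus strand), was at 91.6, 108 and 97.0 in libraries 1, 2 and 3. Mcm4 was at 73.2, 89.3 and 87.8. Mcm3 was at 49.5, 62.8 and 62.1. For Mcm4 and Mcm3, library 1 lay apart from a close pair formed by libraries 2 and 3. Mcm2, the subunit with the largest spread of the 6 (chr6:88883474-88898780, minus strand), was at 41.5, 48.1 and 54.1, a log2 range of 0.37 on the log2(value + 1) scale. Mcm5 was at 44.0, 49.9 and 53.9. Both were highest in library 3. Mcm7 was at 59.3, 61.1 and 61.7, with a coefficient of variation (CV) of 2.01%, the smallest of all members. Mcm7 also hosts microRNAs in its introns, and its values were not whole multiples of the smallest step in any library, so its level is uncertain where reads overlap such features.

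Divided by the length of the principal transcript, the 6 helicase subunits were within 2.39-fold of each other. The levels per kilobase were 34.0 for Mcm6, 23.3 for Mcm4, 20.5 for Mcm7, 19.2 for Mcm3, 14.6 for Mcm5 and 14.2 for Mcm2. Mcm6 was above Mcm2 in every library, by 1.26 ± 0.18 (SD, n = 3) on the log2 scale. By this length, Mcm5 and Mcm2 differed by less than the SD of either, and Mcm7 and Mcm3 by less than the SD of Mcm3. The joined length of all annotated exons was 6956 bases for Mcm2, against 3371 for its principal transcript. It was 4666 against 2910 for Mcm6, but 3589 by both measures for Mcm4. The order of the subunits per kilobase thus depends on the length used.

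The genes of the loading factors covered a wide range of levels. Orc1, the largest subunit of the origin recognition complex (chr4:108579423-108614833, plus strand), had the lowest mean of all members, with 3.50, 4.75 and 4.47. Orc6, its smallest subunit (chr8:85299632-85308278, plus strand), was at 22.2, 20.5 and 17.4. The pair moved in opposite ways: library 1 was the lowest for Orc1 and the highest for Orc6, the only licensing gene that was not lowest there. Per kilobase, the complex ran from 25.0 for Orc3 through Orc6 at 15.6, Orc2 at 11.1, Orc4 at 10.3 and Orc5 at 9.07 to Orc1 at 1.41, a range of 17.8-fold. Orc2 to Orc5 are not members, and their CVs over the libraries were 3.52% to 5.82%.

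Cdc6, an ATPase that joins the origin complex in G1 (chr11:98907801-98923940, plus strand), was at 8.10, 10.3 and 9.76. Cdt1, which brings the helicase to the origin (chr8:122568015-122573554, plus strand), was at 11.8, 13.4 and 14.5. Geminin, encoded by Gmnn (chr13:24751845-24761923, minus strand) and the inhibitor of Cdt1 in S and G2 phase, was at 9.09, 11.4 and 9.57. All were lowest in library 1. Cdt1 was below Gmnn per kilobase in each library, by a log2 ratio of -0.55 ± 0.18 (SD, n = 3), and by -0.70 with the joined length of all annotated exons. When values were not divided by length the ratio was 0.40, so the order turns between levels per kilobase and deposited values.

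Helicase activation genes were low. Mcm10, a factor of helicase activation (chr2:4989714-5012791, minus strand), was at 13.8, 16.0 and 15.2, and Cdc45, a subunit of the active helicase (chr16:18780447-18811987, minus strand), was at 10.7, 13.5 and 13.0. Both were lowest in library 1 and highest in library 2. The GINS subunits Gins1, Gins2 and Gins3 each had a mean below 10. Gins1 (chr2:150905400-150931280, plus strand) was at 3.52, 4.89 and 6.38, the largest spread of any member, with a log2 range of 0.71 and a 1.81-fold difference between libraries 3 and 1. Gins2 was at 7.92, 9.31 and 9.64, and Gins3 at 10.0, 9.75 and 8.78. Gins1 and Gins2 were highest in library 3, where Gins3 was lowest. Gins4, the subunit of this complex that is no member, was at 12.9 per kilobase, against 4.54, 3.78 and 2.30 for Gins1, Gins3 and Gins2.

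Among polymerase genes, Pola1 (chrX:93304767-93632155, minus strand) was the highest in deposited units, at 50.4, 58.4 and 50.9. Library 2 was the highest, and libraries 1 and 3 differed little. Prim1, the primase that lays down the RNA primer, was at 25.8, 28.1 and 23.5, and Pola2, the accessory subunit, at 19.2, 21.2 and 20.3. Per kilobase, Prim1 was at 16.3, the non-member Prim2 at 10.6, Pola1 at 9.96 and Pola2 at 8.36, within 1.95-fold. Prim1 was above Pola1 per kilobase in every library, with a log2 ratio of 0.71 ± 0.07 (SD, n = 3), but the ratio was -1.05 without division by length.

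Pole, the catalytic subunit of the leading strand polymerase (chr5:110286306-110337474, plus strand), was at 29.5, 33.8 and 30.6. Pold1, that of the lagging strand polymerase (chr7:44532746-44548849, minus strand), was at 15.9, 18.0 and 22.1. Pole was highest in library 2 and Pold1 in library 3. Pold1 had the largest spread of the polymerase genes, with a CV of 16.7% and a log2 range of 0.45. The log2 ratio of Pole to Pold1 per kilobase was -0.30 ± 0.25 (SD, n = 3), and 0.76 without division by length. Each catalytic subunit was the lowest of its complex per kilobase of principal transcript. In deposited units the mean of Pold1, 18.7, was above that of Pold4, 9.72, and the mean of Pole, 31.3, above that of Pole2, 9.33. Pold1 was at 5.41 against 12.1, 11.8 and 10.7 for Pold2, Pold3 and Pold4. Pole was at 4.37 against 26.2, 17.2 and 5.47 for Pole3, Pole4 and Pole2.

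Of the 7 genes of the clamp, its loader, single-strand binding and lagging strand completion, library 1 was the lowest for 1. Pcna, the sliding clamp (chr2:132249162-132253314, minus strand), was at 102, 112 and 98.0, and at 68.6 per kilobase it was the highest of all members. Library 2 was the highest and library 3 the lowest. Its values were not whole multiples of the step in any library, and a processed pseudogene, Pcna-ps2, was listed at 2.73, 2.36 and 2.28, so a small part of the reads could be split between the copies. Lig1, which seals Okazaki fragments (chr7:13277283-13311433, plus strand), was at 50.5, 49.2 and 46.4, and Fen1, which trims their flaps, at 19.9, 19.1 and 21.1. Rpa2, a subunit of the single-strand binding complex RPA, was at 23.4, 20.7 and 23.8. Lig1 was highest in library 1, and Fen1 and Rpa2 in library 3.

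The clamp loader subunits also differed. Rfc2 was at 27.0, 31.6 and 31.7, with library 1 lowest. Rfc3 was at 17.4, 14.6 and 17.1, and Rfc4 at 13.5, 13.2 and 14.0, with library 2 lowest in both. Rfc4 had a CV of 2.96%. Per kilobase the loader ran from Rfc1 at 20.5, through Rfc3 at 12.4, Rfc4 at 11.0 and Rfc5 at 7.70 to Rfc2 at 6.03, a range of 3.40-fold. The principal transcript of Rfc2 has 4995 bases, against 1317 for Rfc3, and in deposited units Rfc2 was above Rfc3 and Rfc4. Its place in the loader thus depends on the length used. In RPA, Rpa2 at 12.5 per kilobase was below Rpa3 at 22.1 and Rpa1 at 17.8. In deposited units the mean of Rpa2, 22.6, was above that of Rpa3, 14.8.

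**Figure D3:**
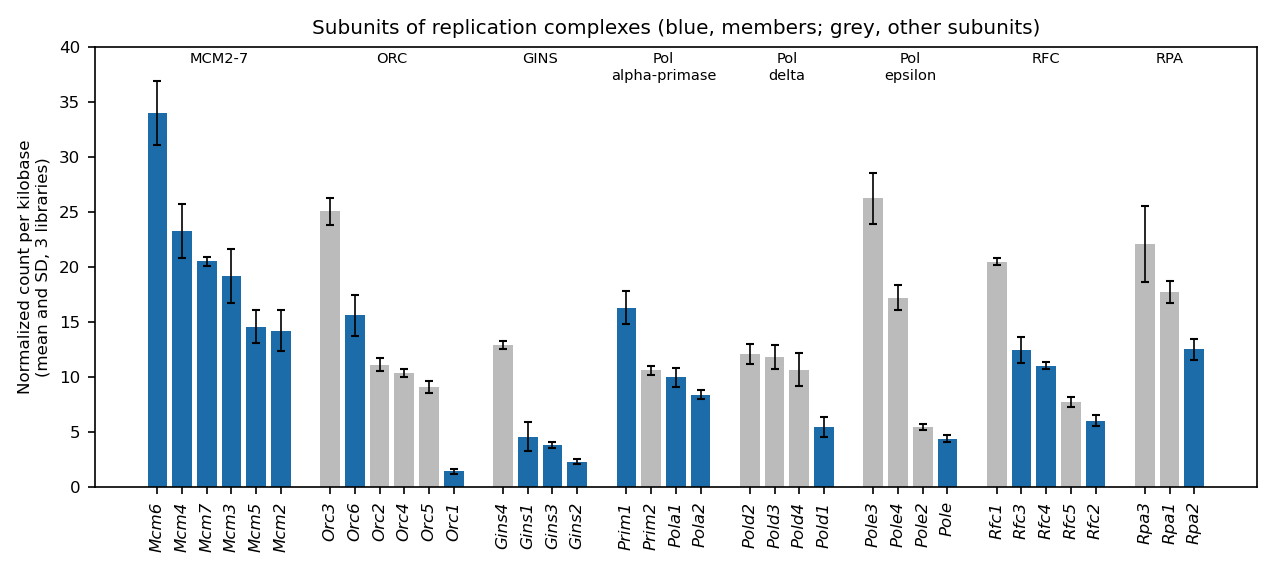
Normalized count per kilobase of principal transcript for the subunits of 8 replication complexes, as the mean of 3 libraries with the SD; blue bars are members and grey bars are the other subunits. By this length, the MCM2-7 subunits lie between 14.2 and 34.0, and Orc1, Pold1, Pole, Rfc2 and Rpa2 are the lowest of their complexes. These orders depend on the length used.

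Nucleotide supply genes were lowest in library 1 and highest in library 2 in 4 of 4 cases. Rrm1, the large subunit of ribonucleotide reductase (chr7:102441695-102469771, plus strand), had the highest deposited mean of all members, at 128, 151 and 145. Rrm2, the small subunit, which is made in S phase (chr12:24708241-24714146, plus strand), was at 31.6, 45.9 and 39.3, with a log2 range of 0.53. Tyms, thymidylate synthase (chr5:30058202-30073617, minus strand), was at 20.6, 29.1 and 22.8, with a log2 range of 0.48. After Gins1, Rrm2 and Tyms had the largest log2 ranges of all members. Tk1, thymidine kinase of the salvage path, was at 14.8, 15.8 and 15.1, a CV of 3.24% that lay below its counting error of 4.19%. Rrm1 was above Rrm2 per kilobase by 1.01 ± 0.15 (SD, n = 3) on the log2 scale, and the ratio was smallest in library 2. With the joined length of all annotated exons the same ratio was -0.12, so the order of these subunits rests on which length is used.

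Slbp, which binds the stem-loop of histone mRNAs (chr5:33634952-33652574, minus strand), was at 59.6, 64.2 and 57.2. Chaf1a, the large subunit of the CAF-1 complex that places histones on new DNA, was at 30.5, 32.7 and 32.8, and Chaf1b at 9.99, 8.30 and 10.2. The 3 genes had 3 different lowest libraries. Chaf1a and Chaf1b differed per kilobase by 0.23 ± 0.19 (SD, n = 3) on the log2 scale. The difference was 0.84 with the joined exon length and 1.76 without division by length, so its size depends on the length used.

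The G1/S control genes were lowest in library 1 in 4 of 4 cases. The cyclins E, which activate Cdk2 at the start of S phase, were at 13.8, 16.5 and 16.4 for Ccne1 and 19.5, 22.6 and 19.8 for Ccne2. E2f1, an activating E2F factor (chr2:154559407-154569892, minus strand), was at 8.62, 10.7 and 11.1. E2f8, a repressing E2F factor, was at 10.2, 13.0 and 12.7. E2f1, E2f8 and Ccne1 in library 1 were under 0.9 of both other libraries, while Ccne2 in library 1 was close to library 3. Per kilobase, the log2 ratio was -0.18 ± 0.12 (SD, n = 3) for Ccne2 to Ccne1 and -0.19 ± 0.05 (SD, n = 3) for E2f8 to E2f1. Without division by length both ratios were positive, 0.41 and 0.24, and with joined exon lengths they were 0.019 and -0.55.

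Across all 39 members, library 1 held the lowest value of 28, library 2 of 5 and library 3 of 6. Library 2 held the highest value of 21, library 3 of 14 and library 1 of 4. Among the 33 with a mean of at least 10, 24 were lowest in library 1, 4 in library 2 and 5 in library 3, where the shares over all 10388 such genes were 38.1%, 27.8% and 34.2%. Of the same 33, 3 were highest in library 1, 19 in library 2 and 11 in library 3, where the shares over all genes were 31.2%, 34.2% and 34.6%. The members' share for library 1 was 72.7% lowest, well above its background, and that for library 2 was 57.6% highest. A stricter count, of genes in library 1 under 0.9 of both other libraries, took 13 of the 33 members, against 11.9% of all genes. No test was made, because all libraries belong to 1 group and the genes are not independent replicates.

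The size of the shift was small. The median deviation of the 33 members from their own mean was -0.11, 0.09 and 0.03 in libraries 1, 2 and 3 on the log2(value + 1) scale, while over all 10388 genes it was -0.0075, 0.0092 and 0.0022. Each library's deviation is set against the libraries kept. Without library 1 the medians were 0.03 in library 2 and -0.03 in library 3, a turn of sign for library 3. Without library 2 they were -0.04 in library 1 and 0.04 in library 3, and without library 3 they were -0.09 in library 1 and 0.09 in library 2. When library 1 was left out, 22 of the 34 members with a mean of at least 10 were lower in library 3 than in library 2. When library 2 or library 3 was left out, 26 of 32 members were lowest in library 1.

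The shift was uneven over the roles. Library 1 was the lowest for 10 of 11 licensing genes, 4 of 5 helicase activation genes, 4 of 5 polymerase genes, 4 of 4 nucleotide supply genes and 4 of 4 G1/S genes. It was the lowest for 1 of 7 clamp, loader and fork genes and 1 of 3 chromatin and histone mRNA genes. Among members with a mean of at least 10, the median of library 1 minus the mean of the others was -0.26 for nucleotide supply, -0.27 for G1/S control and -0.23 for licensing, against -0.01 for the clamp, loader and fork genes. The difference between roles was not tested. By promoter sequence, and now over all members whatever their mean, 11 of 14 with an E2F type match were lowest in library 1. So were 10 of 18 without a match and 7 of 7 with no window in the table. The medians of library 1 minus the others were -0.14, -0.11 and -0.22. Of all genes with a mean of at least 10, 38.1% were lowest in library 1. A link between match and shift was not tested.

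**Figure D4:**
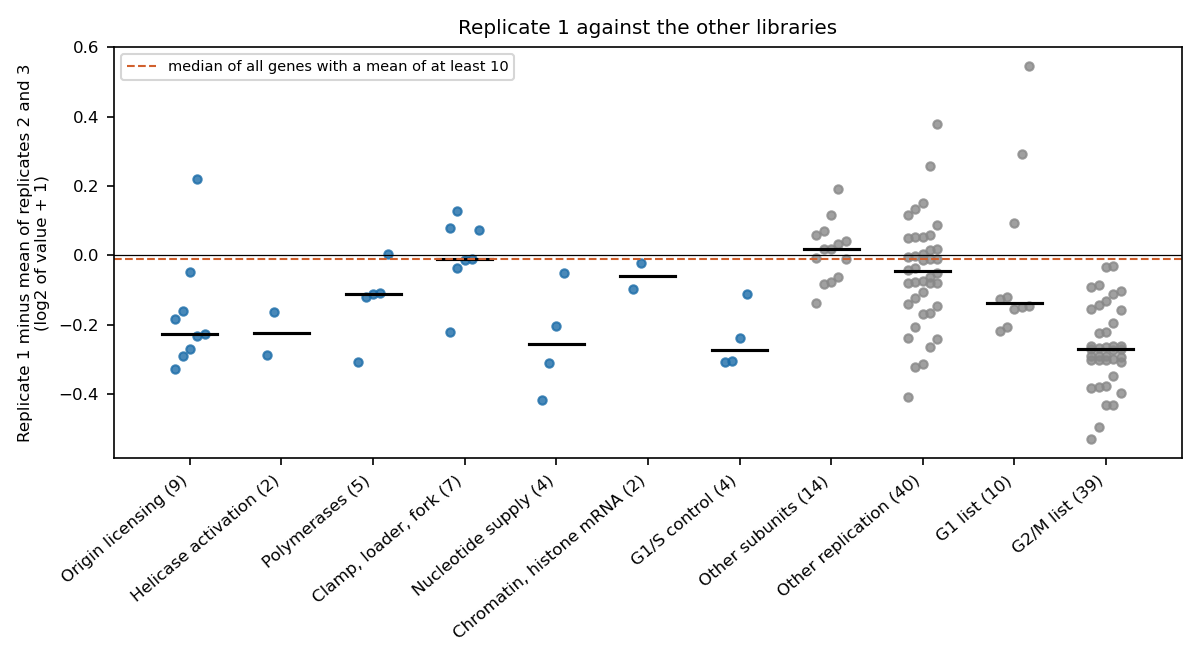
Library 1 (replicate 1) minus the mean of libraries 2 and 3, on the log2(value + 1) scale, for each gene with a mean of at least 10, by role for members (blue) and for other pathway lists (grey), with the number of genes in parentheses and the median as a bar. The clamp, loader and fork genes have a median of -0.01, near the dashed median of all genes, and the licensing, nucleotide supply and G1/S control genes have medians between -0.27 and -0.23.

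Other genes of the pathway were described by the same counts. Of the 16 remaining subunits of the complexes above, 14 had a mean of at least 10, and 3 of these were lowest in library 1 and 8 in library 3. Of 49 further replication and S phase genes, 40 had such a mean, with 20 lowest in library 1 and 26 highest in library 2. The highest of these were Dnmt1, the maintenance DNA methyltransferase, at 93.7, 112 and 109, Samhd1, which degrades deoxynucleotides, at 123, 89.8 and 99.0, and Tfdp2, a partner of E2F factors, at 101, 108 and 96.0. Samhd1 was thus highest in library 1, where the nucleotide supply members were lowest. E2f7, the closest relative of E2f8, was at 9.44, 13.5 and 12.2, again lowest in library 1, and Cdc7, a kinase that activates the helicase, at 11.4, 13.5 and 9.60.

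Genes of G2 phase and mitosis were also low in library 1. Of 39 such genes, 36 were lowest in library 1, 29 of them under 0.9 of both other libraries, and their median deviation was -0.18, 0.11 and 0.08. Mki67, the Ki-67 proliferation antigen, was at 236, 302 and 282. Top2a, which untangles replicated DNA, was at 217, 279 and 256, and Cenpf, a kinetochore protein, at 104, 135 and 136. The 3 with the largest range were Ccnb2 at 17.2, 22.4 and 28.7, Cdc20 at 20.8, 23.8 and 32.2, and Mad2l1 at 38.5, 58.4 and 51.2. The replication list minus the G2 and mitosis list was 0.07, -0.02 and -0.04 in the 3 libraries. Without library 1 it turned to 0.02 in library 2. The difference between the lists was not tested. Of 10 G1 regulators with a mean of at least 10, 7 were lowest in library 1. Cdkn1c, an inhibitor of cyclin-dependent kinases, went the other way, at 334, 246 and 212, while Ccnd2, at 471, 546 and 485, and Cdk4, at 187, 200 and 215, were lowest in library 1. Cdk6, the other partner of the D cyclins, was highest in library 1, at 37.1, 28.6 and 31.7, and Cdkn2d, an inhibitor of Cdk4 and Cdk6, was lowest there, at 12.8, 16.1 and 14.2.

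Several marker lists of other cell types differed between the same libraries. Macrophage genes were lowest in library 1 in 6 of 7 cases, and the list of 8 summed to 779, 1051 and 1093. Interferon response genes were highest there, as given above. Odontoblast genes were lowest in library 2 in 5 of 7 cases and summed to 16027, 6304 and 18327, with Dspp, the main dentin matrix gene, at 4959, 1072 and 3489. Dental epithelium genes summed to 837, 1309 and 968, highest in library 2 for 7 of 9 genes, and endothelial genes to 358, 372 and 492. Erythroid genes summed to 21.4, 32.7 and 30.7. Of 7 lymphocyte markers 3 were found, and Cd3e and Cd79a had means of 0.174 and 0.233. The pan-leukocyte gene Ptprc was at 53.7, 67.6 and 65.2. Library 2, where replication genes were highest, was thus the library with the least odontoblast and the most dental epithelium signal, and library 1 that with the least macrophage and the most interferon signal. The part of these cell types in the result was not tested.

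The spread of the members was a little above that of all genes, in a comparison that was not matched for level. Where the mean was 10 or more, the median CV was 8.95% for the members and 7.20% for all genes. Over all 39 members the CV ran from 2.01% for Mcm7 to 29.0% for Gins1. If the smallest step of each column stands for 1 read, counting error alone would be between 1.38% for Rrm1 and 8.03% for Orc1. The CV was above this error in 36 of 39 members and more than 2 times as large in 28. The same counts were not made over all genes, so they do not set the members apart from other genes. Mcm7, Tk1 and Rfc4 varied by less than their counting error. For 33 members the values were whole multiples of the step, within 0.1, in all 3 libraries, and for Mcm7, Pcna, Tyms, Rrm2, Cdc6 and Slbp they were not in at least 1 library.

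**Figure D5:**
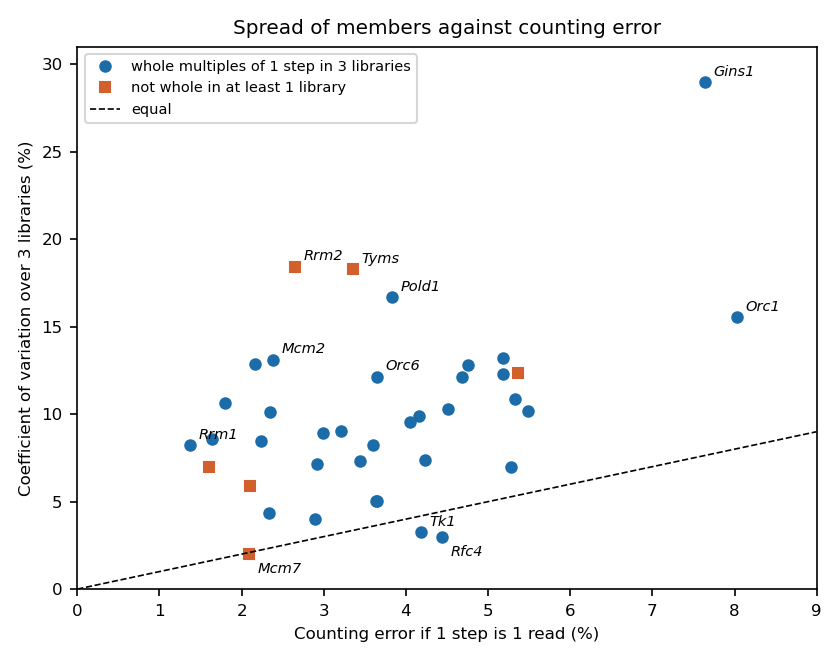
Coefficient of variation over 3 libraries (y axis, percent) against the counting error expected if 1 step is 1 read (x axis, percent) for the 39 members; the dashed line marks equality, and squares are the 6 members whose values were not whole multiples of the step in at least 1 library. Gins1 lies highest at 29.0%, and Mcm7, Tk1 and Rfc4 lie under the line.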

How the data were processed

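RNA from 3 DKO libraries was sequenced, and 1 table of gene-level normalized counts was used. Reads were aligned with TopHat2 2.0.8 to mm10, per the submitters' processing notes. The deposited values are a normalized signal per gene that behaves as scaled counts, since the 75th percentile is 44.7 in every column. The read counter, annotation, strand setting, handling of reads with several matches and filters were not given in the sources used here. Each column was assigned to a library through the number that both names carry, and all 3 value columns were used.

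Between 84.6% and 85.1% of genes up to 5000 times the smallest step were whole multiples of it with a tolerance of 0.1, under the 95% needed, so whole reads were not recovered, depth is unknown and no count model was used. Counting errors assume that 1 step is 1 read and leave out library preparation. With 1 group, no test between groups was possible and no p-value is given.

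Deviations are log2(value + 1) minus the gene's mean over the libraries, for genes with a mean of at least 10. Levels per kilobase used the APPRIS principal transcript of GENCODE vM21, a choice made after joined exon lengths were seen to hold retained introns. Deposited start positions equalled those of GENCODE for 39 of 39 members, and ends were taken as 1 base before the deposited stop. Promoters came from RefSeq (GRCm38.p6), whose start sites were not those of the deposited genes for all members. The members and lists were chosen with earlier results of these data known. Named were all members, the subunits that complete their complexes, and from the further replication, G2 and mitosis, and G1 lists the 3 genes with the highest mean and, among means of at least 10, the 3 with the largest log2 range. Ptprc, Dspp, Cd3e, Cd79a, Isg15, Rsad2, Arid1a and Arid1b are outside that rule and were named after their values were seen. Alternatives were other scalings, pseudocounts of 0.1 and 10, other filters, other lengths, and leaving out each library. The deviation script was tested on simulated data. Python 3.11.15, numpy 2.4.6, pandas 2.3.3 and matplotlib 3.10.9 were used.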

Additional observations from a re-analysis of the deposited data

How the results depend on the processing

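Of 170 values recomputed under alternatives for 24 results, 139 stayed within the spread or within 1.5 times the count, and 31 moved. For deviations and list differences the spread was the SD of the 3 library values themselves, so a turn of sign could stay within it. Without library 1, the median deviation in library 3 turned from 0.03 to -0.03. The replication list minus the G2 and mitosis list turned from -0.02 to 0.02 in library 2. The 139 is thus no measure of stability for these results. The number of members lowest in library 1 was 24, 25 with equal totals and 21 with 17 ribosomal RNA and mitochondrial genes removed, an alternative added after the data were seen. Equal totals left 1 member highest in library 1. The removal gave 8 members lowest and 7 highest in library 3. A mean of at least 100 left 2 members, with 1, 0 and 1 lowest and 0, 2 and 0 highest in libraries 1, 2 and 3. Without a replicate, the members lowest ran from 6 to 12 in library 2 and from 6 to 22 in library 3. Those highest were 6 to 6 in library 1 and 12 to 26 in library 3. The causes were not tested, except that fewer libraries or members remain by construction.

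Values not divided by length gave log2 ratios of 1.88 for Rrm1/Rrm2, 0.40 for Cdt1/Gmnn, 0.41 for Ccne2/Ccne1, 0.24 for E2f8/E2f1, 1.76 for Chaf1a/Chaf1b, -1.05 for Prim1/Pola1, 0.76 for Pole/Pold1 and 1.05 for Mcm6/Mcm2. Joined exon lengths, also added later, gave -0.12 for Rrm1/Rrm2, 0.019 for Ccne2/Ccne1, -0.55 for E2f8/E2f1, 0.84 for Chaf1a/Chaf1b, 0.14 for Prim1/Pola1 and 1.63 for Mcm6/Mcm2. Promoter matches fell from 14 genes to 7 on the strand of the gene alone and to 5 with TTTGGCGC alone. No paired analysis was possible because all 3 libraries belong to 1 group.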
